A study of Mus musculus with 26 samples.

Results

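The MYC, MAX and MXD network was followed through 10 genes, Myc, Mycn, Mycl, Max, Mxd1, Mxd3, Mxd4, Mxi1, Mnt and Mga, which were chosen by name. Each of the 10 was found by its symbol among the 55391 gene symbols of the count table. RNA was sequenced from EA1, EA2 and EA3, murine lung cancer cell lines isolated from C57BL/6 mice that carry the EML4-ALK fusion. EA1 came from a mouse with wild-type Trp53, and EA2 and EA3 came from Trp53 null mice, so the wild-type genotype rests on 1 line. Cells were grown with 100 nM alectinib, an inhibitor of the ALK kinase, or with its solvent DMSO at 0.1%. There was 1 library for each line, treatment and day, on days 1, 2, 3 and 5, which gives 24 libraries and 4 per line and treatment. A further 2 libraries labelled EA3 day 7 correlated more with EA2 than with EA3 libraries, were left out of every fit described here and entered only an alternative with all 26 libraries. The days of a line stood in for replicates, so the spread given below is a spread over days and no library was repeated within a day.

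MYC proteins bind DNA only as a dimer with MAX, and the MYC-MAX dimer drives genes of ribosome production, metabolism and growth from E-box motifs. MXD1, MXD3, MXD4, MXI1 and MNT pair with the same MAX protein and repress from the same motifs through SIN3 and histone deacetylases, and MGA pairs with MAX inside a noncanonical polycomb complex. MYC is an early target of receptor tyrosine kinase signaling, whereas MXD proteins are known for their rise as cells leave the cell cycle and differentiate.

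Promoter windows, from 250 bases before to 50 after an annotated start, were taken from RefSeq (build GRCm38.p6) for 9 of the 10 genes, with 11 windows in all. No window was available for Myc, so its promoter was not searched. The 3 shown are those of Mxd4 and Mycl, which were higher with alectinib in each of the 3 lines, and of Max, the shared partner, which passed the threshold in none of them. Mxd4 lies on the minus strand (window chr5:34187661-34187960), Mycl on the plus strand (chr4:122995681-122995980) and Max on the minus strand (chr12:76962199-76962498). Each window reads 5′ to 3′ on the strand of its gene, and capitals mark an E-box, as the canonical CACGTG or as CACGCG.
Mxd4: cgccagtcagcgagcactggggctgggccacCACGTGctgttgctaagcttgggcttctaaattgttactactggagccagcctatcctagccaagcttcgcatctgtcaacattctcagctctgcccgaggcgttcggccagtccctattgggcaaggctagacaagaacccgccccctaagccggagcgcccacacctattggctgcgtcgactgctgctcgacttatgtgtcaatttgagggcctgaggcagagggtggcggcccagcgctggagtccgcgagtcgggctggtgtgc
Mycl: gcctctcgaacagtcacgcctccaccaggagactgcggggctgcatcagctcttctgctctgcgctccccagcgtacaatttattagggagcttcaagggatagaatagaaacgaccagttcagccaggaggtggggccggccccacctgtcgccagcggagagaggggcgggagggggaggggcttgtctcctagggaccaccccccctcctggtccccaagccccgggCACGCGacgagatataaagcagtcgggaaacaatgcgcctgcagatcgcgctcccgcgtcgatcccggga
Max: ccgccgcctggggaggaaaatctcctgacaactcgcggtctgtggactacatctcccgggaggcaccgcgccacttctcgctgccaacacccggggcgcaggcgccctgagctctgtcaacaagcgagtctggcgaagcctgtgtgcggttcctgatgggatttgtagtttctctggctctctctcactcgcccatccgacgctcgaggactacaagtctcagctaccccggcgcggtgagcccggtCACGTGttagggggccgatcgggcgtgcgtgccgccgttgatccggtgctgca
The canonical motif, which reads the same on both strands, began 219 bases before the start of Mxd4, 123 before that of Mnt and 3 before that of Max. It was found in 3 of the 11 windows and in 7.15% of all 32851 windows of the same length. CACGCG, read on either strand, was found 20 bases before the start of Mycl and 21 before that of Mga, and in 9.27% of all windows. The forkhead motif TGTTTAC, also searched on both strands, was found in 1 of the Mxi1 windows, 231 bases before the start, and in 3.65% of all windows. These matches are descriptions of letters and were not tested as binding sites.

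Library totals ran from 5780062 to 11732401 counts (median 9252878), and levels are given as CPM, the counts per gene over library size, scaled with edgeR's TMM factors. A gene was called at an adjusted p-value under 0.05 in edgeR's quasi-likelihood test, where p-values were adjusted over all genes tested by the Benjamini-Hochberg procedure. All 10 genes passed the filter on low counts in the comparison of treatments, and 9 of them, Mycn being the exception, passed it among the DMSO libraries alone. Keratins Krt8, Krt18 and Krt19 were detected in each line, whereas Epcam reached at most 7 counts in any EA2 library and 75 in any EA1 library, and Cldn7 at most 2 in either line. Of the 6 epithelial markers, these 5 and Cdh1, Krt18 was lower with alectinib in each line, at log2 fold changes of -1.51, -1.79 and -1.13. Krt8 was lower in EA2 at -2.61 and had -0.52 in EA1 and -0.45 in EA3. Cdh1 was higher in EA2 and EA3, by 1.55 and 0.65, and had 0.29 in EA1. Epcam was higher in EA1, by 2.45, and had -5.26 in EA2 (edgeR, adjusted p = 0.0536) and 0.02 in EA3. That makes 1 higher and 1 lower in EA1 and in EA3 and 1 higher and 2 lower in EA2. Over all genes, 19.0%, 13.0% and 17.5% were called higher in EA1, EA2 and EA3, and 14.6%, 11.3% and 15.1% lower. The counts of 1 of 6 lie near these shares. The summed level of the 6 epithelial markers ran from 4633 to 9252 CPM in EA1 DMSO cultures and from 3245 to 5367 CPM with alectinib. The ranges were 1811 to 2695 and 567 to 1169 CPM in EA2 and 4681 to 6777 and 2974 to 6747 CPM in EA3. Markers of alveolar type 2 cells, the surfactant gene Sftpc included, summed to at most 1.42 CPM and those of leukocytes to at most 0.989 CPM in any library, and 0 of the 6 and 0 of the 5 passed the filter on low counts. Of 4 endothelial markers, 3 were tested and 1 passed, Pecam1, which was lower in EA2, against 11.3% of all genes called lower there. Its log2 fold change was -2.43 in EA2, 0.35 in EA1 and 0.84 in EA3, and it reached at most 40 counts in any EA2 library. The 4 endothelial markers summed to at most 9.39 CPM in any library. Of 7 fibroblast markers, 5 were tested, of which 4 in EA1, 3 in EA2 and 4 in EA3 were higher with alectinib, against 19.0%, 13.0% and 17.5% of all genes tested, and the medians were 5.05, 1.58 and 3.40 on the log2 scale. Collagen Col3a1 was among them each time. The fibroblast markers summed to 2.14 to 7.46 CPM in EA1 DMSO cultures and to 58.3 to 327 CPM with alectinib, against 58.5 to 71.5 and 122 to 239.6 CPM in EA2 and 10.2 to 20.2 and 84.8 to 267 CPM in EA3, while the fibroblast marker Thy1 stayed at 2 counts or fewer in every library. The part of these transcripts in the results below was not tested, and fewer cells of a kind and less RNA per cell cannot be told apart in bulk RNA.

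**Figure D1:**
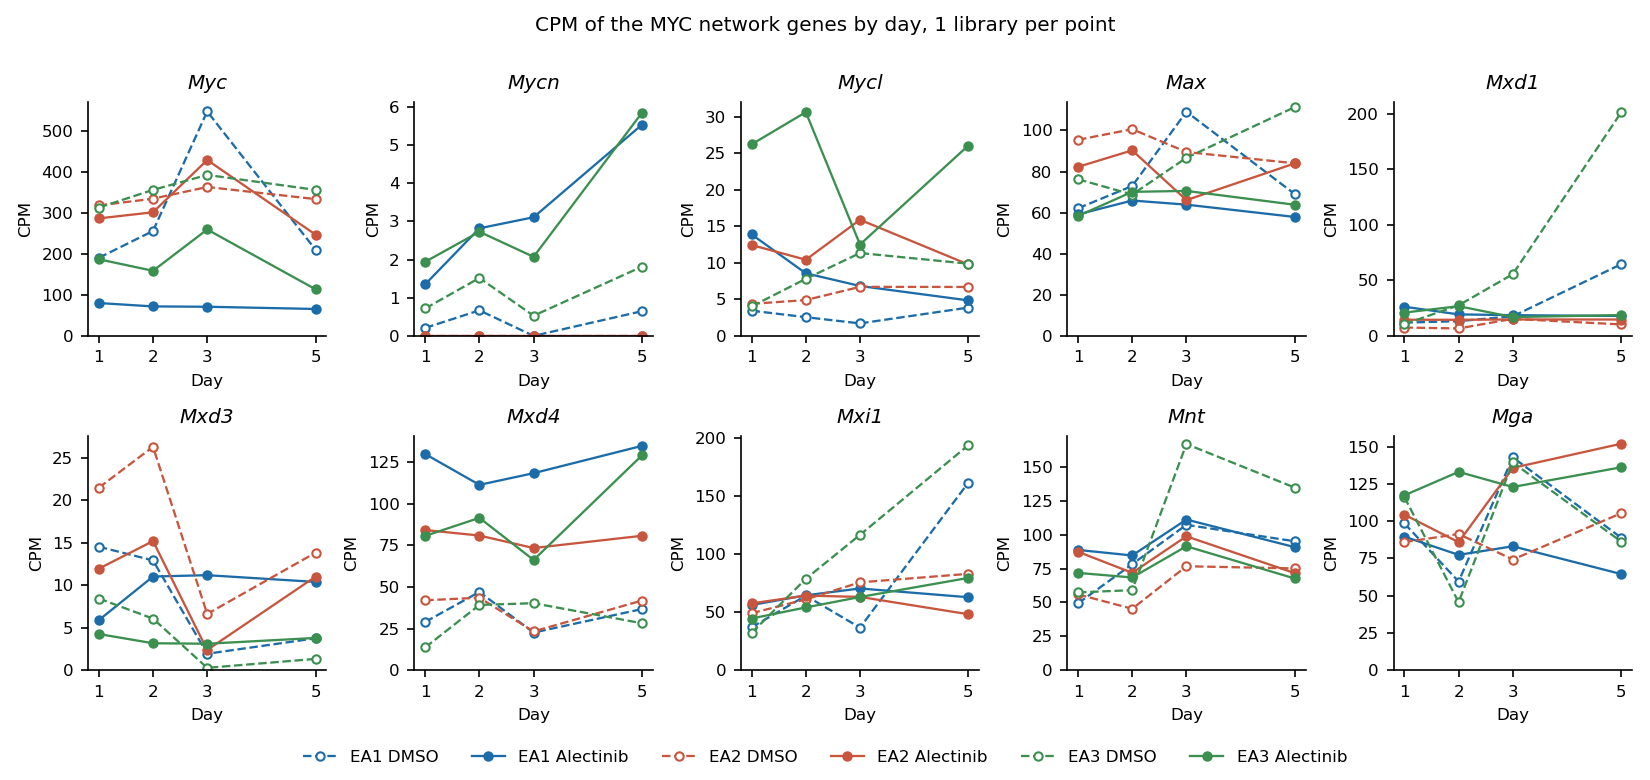
CPM of the 10 network genes (y axes, linear and starting at 0) by day of culture (x axes), with 1 library per point, colours for the lines, open points and dashed lines for DMSO and filled points for alectinib. Mxd4 and Mycl with alectinib sit above DMSO on each day in each line, Mycn is at 0 in EA2, and Mxd1 reaches 201 CPM in EA3 DMSO cultures on day 5.

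Myc was the most abundant of the 10 transcripts per length in the DMSO cultures of each line. Expressed per kb of merged exon, its mean level was 111 ± 61.2 CPM per kb (SD, n = 4 days) in EA1, 124 ± 6.89 in EA2 and 130.2 ± 11.96 in EA3. Max came second at 21.8 ± 5.84, 25.7 ± 2.00 and 23.8 ± 5.16 CPM per kb, followed by Mnt, the broadly expressed antagonist, at 17.8 ± 5.44, 13.7 ± 3.30 and 22.6 ± 11.9. The Max and Mnt levels overlapped within their spread in EA1 and EA3 and lay further apart in EA2. Below them came Mxi1 at 11.0 ± 8.69, 9.84 ± 2.22 and 15.4 ± 10.0 CPM per kb. Mga had 6.35 ± 2.25, 5.82 ± 0.840 and 6.32 ± 2.64 CPM per kb, above Mxd4 at 3.99 ± 1.24, 4.44 ± 1.14 and 3.57 ± 1.46. Mxd3 in EA2, at 7.20 ± 3.65, and Mxd1 in EA3, at 10.4 ± 12.3, also had means above that of Mxd4. Mycl, at 0.718 ± 0.239, 1.41 ± 0.300 and 2.05 ± 0.786 CPM per kb, and Mycn were among the lowest. In EA2, Mycn had 0 counts in all 8 libraries, which together hold 70867800 counts and so allow a level of up to 0.0423 CPM, where the limit of 3 counts covers counting error only.

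The DMSO level differed between the lines for 3 of the 9 genes tested, Mxd1, Mxd3 and Mycl, in a fit of the 12 DMSO libraries that allowed for the day, and for 55.6% of all genes tested. Mxd3, an antagonist known from dividing cells, had the lowest adjusted p-value of the 9 (edgeR, adjusted p = 0.000555), which was 0.132 in a fit without the day as a block. Its log2 level was higher in EA2 than in EA1 by 1.30 (95% confidence interval 0.53 to 2.07) and higher in EA2 than in EA3 by 2.46 (1.63 to 3.29), and the difference of EA3 from EA1 was -1.16 (-1.98 to -0.33). Mycl was higher in EA3 than in EA1 by 1.45 on the log2 scale (0.67 to 2.23), with an adjusted p of 0.0144 between lines in edgeR's test and of 0.0503 without the EA1 library of day 2. Mxd1 was lower in EA2 than in EA3, with a log2 difference of -2.21 (-3.21 to -1.20), and its adjusted p between lines was 0.00445 in the same edgeR test. Mnt missed the threshold between lines at an adjusted p of 0.0551, which lay between 0.0183 and 0.221 over 18 alternatives, 5 of them past the threshold, and as a single contrast EA2 minus EA3 was -0.64 on the log2 scale (edgeR, adjusted p = 0.0317). For Myc the adjusted p was 0.410, with a log2 difference of 0.23 (-0.26 to 0.73) between EA2 and EA1, so that a difference in the control level was not detected over all 12 libraries. Without the EA1 library of day 3, in which Myc stood at 546 CPM, the edgeR test between lines passed at an adjusted p of 0.00944.

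With alectinib, 4 of the 10 genes changed in EA1, 2 in EA2 and 3 in EA3. In EA1, Mycl, Mycn and Mxd4 rose and Myc fell, against 19.0% of all genes tested called higher and 14.6% called lower. Mycn, which did not pass the filter among the DMSO libraries alone, is counted as a description, and in EA2 it had 0 counts. In EA2, Mycl and Mxd4 rose and none of the 10 fell, against 13.0% and 11.3% of all genes. With single EA2 days left out, 0 to 1 of the 10 passed there. In EA3, Mycl and Mxd4 rose and Myc fell, against 17.5% and 15.1%. The median log2 fold change over the 10 genes was 0.15, 0.20 and -0.02, beside 0.06, 0 and 0.07 over all genes tested.

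**Figure D2:**
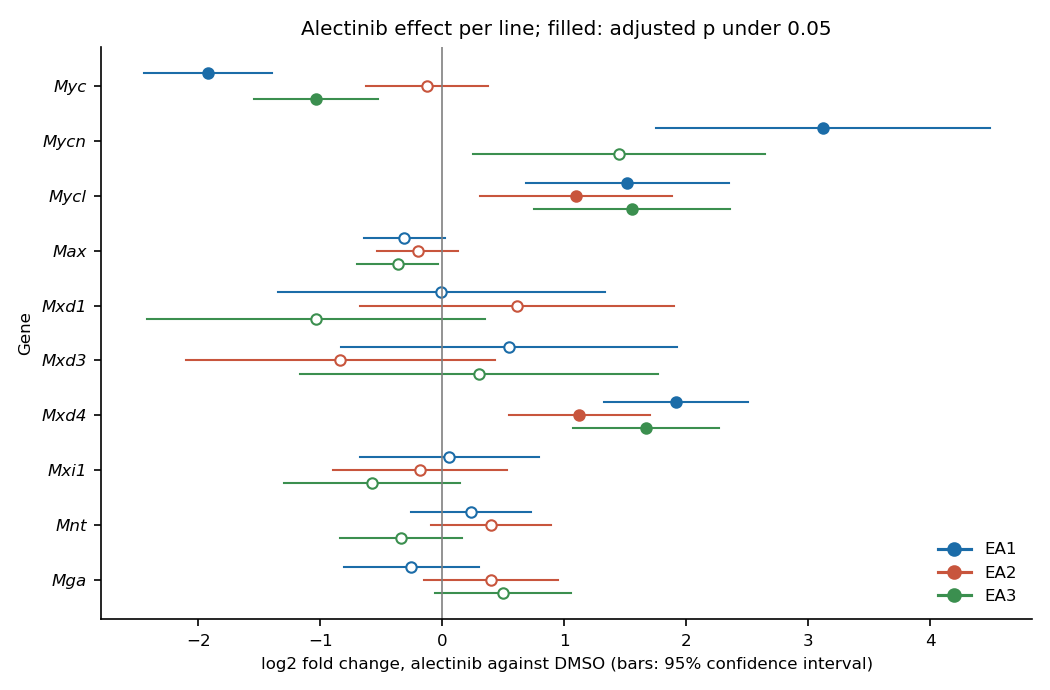
The log2 fold change of alectinib against DMSO (x axis) for each gene (y axis) and line (colours), with bars for the 95% confidence interval and filled points for an adjusted p-value under 0.05 (edgeR). Mycl and Mxd4 are filled in each line, Myc in EA1 and EA3, and Mycn in EA1, and no point is drawn for Mycn in EA2, where it had 0 counts.

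Myc, the transcription factor at the centre of the network, lies on chromosome 15 from 61985391 to 61990374 on the plus strand (GENCODE, mm10). In EA1 it stood at 190.2, 255, 546 and 209.8 CPM on days 1, 2, 3 and 5 in DMSO and at 80.0, 71.8, 70.9 and 65.5 CPM with alectinib. In EA2 it stood at 318, 334, 363 and 333 CPM in DMSO and at 286, 301, 428 and 247 CPM with alectinib. In EA3 the values were 313, 355, 392 and 356 CPM in DMSO and 187, 158, 259 and 114 CPM with alectinib. Treated and control libraries did not overlap in EA1 or EA3, whereas in EA2 they overlapped and the alectinib library of day 3 was the highest of the 8. In EA1, EA2 and EA3, respectively, the log2 fold changes of Myc were -1.92 (95% confidence interval -2.45 to -1.39), -0.12 (-0.62 to 0.38) and -1.04 (-1.54 to -0.53). This contrast between lines was known when the genes were chosen, so its test is no independent evidence. In the test of the effect between lines, Myc was the 1 gene of the 10 past the threshold (edgeR, adjusted p = 0.0165), against 6.84% of all genes tested. The log2 fold change in EA2 exceeded that in EA1 by 1.80 (1.08 to 2.52) and that in EA3 by 0.91 (0.20 to 1.62), and only the former passed as a single contrast, with adjusted p-values of 0.00823 and 0.158 in edgeR. Without the EA2 libraries of day 3, the adjusted p between lines was 0.0520, and it lay between 7.2e-09 and 0.0520 over 19 alternatives.

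Mycl, the family member first known from small cell lung cancer, rose in each line. It lies on chromosome 4 from 122995652 to 123002485 on the plus strand. In EA1 it stood at 3.45, 2.56, 1.71 and 3.88 CPM in DMSO and at 13.9, 8.57, 6.83 and 4.86 CPM with alectinib. In EA2 the values were 4.39, 4.90, 6.72 and 6.70 CPM in DMSO and 12.4, 10.4, 15.9 and 9.78 CPM with alectinib. In EA3 they were 4.04, 7.81, 11.3 and 9.89 CPM in DMSO and 26.2, 30.6, 12.5 and 26.1 CPM with alectinib. Alectinib libraries were above every DMSO library of their line on 4 of 4 days, although the gap was small on day 5 in EA1 and on day 3 in EA3. In the order EA1, EA2 and EA3, Mycl had log2 fold changes of 1.52 ± 0.39 (standard error), 1.09 ± 0.37 and 1.55 ± 0.37 (edgeR, adjusted p = 0.00905, 0.0436 and 0.00655). A difference of the effect between lines was not detected (adjusted p = 0.763, edgeR), and EA2 minus EA1 was -0.43 (95% confidence interval -1.56 to 0.71). The EA2 call did not hold when any 1 day was left out, with adjusted p-values of 0.153, 0.0956, 0.141 and 0.0556 without day 1, 2, 3 and 5, while the log2 fold change stayed between 0.96 and 1.28.

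Mycn, the family member of neuronal and embryonic tissue, rose in EA1 from very few reads. Counts were 2, 6, 0 and 5 in DMSO and 14, 23, 30 and 66 with alectinib in EA1, and 8, 13, 4 and 11 in DMSO and 21, 25, 22 and 54 with alectinib in EA3. The 4 alectinib libraries lay above the 4 DMSO libraries in both lines. Mycn had a log2 fold change of 3.12 ± 0.62 (standard error) in EA1 (edgeR, adjusted p = 0.00344) and 1.45 ± 0.54 in EA3 (adjusted p = 0.0637). It passed the filter on low counts through its alectinib libraries and not among the DMSO libraries alone, so the EA1 call is a description. At its highest, 5.84 CPM in EA3 on day 5, Mycn remained far below Myc in the same library, which had 114 CPM. The make-up of the family differed between treatments. Myc supplied between 98.5% and 99.8% of the summed Myc, Mycn and Mycl level per kb in EA1 DMSO libraries and between 88.4% and 90.8% with alectinib. In EA3 it supplied 97.8% to 99.0% in DMSO and 83.5% to 96.2% with alectinib, and in EA2 98.7% to 99.1% and 97.2% to 97.7%.

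Max, the shared partner of the other proteins of the network, passed the threshold in none of the lines. It lies on chromosome 12 from 76937269 to 76962201 on the minus strand. In EA1 its level ran from 62.1 to 109 CPM in DMSO and from 57.9 to 65.9 CPM with alectinib, in EA2 between 84.0 and 101 and between 66.1 and 90.3 CPM, and in EA3 between 68.8 and 111 and between 58.4 and 70.6 CPM. The 2 groups overlapped in each line. Log2 fold changes of Max across EA1, EA2 and EA3 were -0.31 (95% confidence interval -0.64 to 0.02), -0.20 (-0.53 to 0.13) and -0.36 (-0.69 to -0.03), and edgeR gave adjusted p-values of 0.133, 0.369 and 0.0860. Without the EA3 libraries of day 2 the EA3 value was -0.52 with an adjusted p of 0.0487.

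Among the antagonists, Mxd4 rose in each of the 3 lines, including EA2. It lies on chromosome 5 from 34173883 to 34187720 on the minus strand and pairs with MAX to repress transcription. In EA1 it stood at 29.0, 47.0, 22.6 and 36.7 CPM in DMSO and at 130.0, 111, 118 and 135 CPM with alectinib. In EA2 the values were 42.0, 43.5, 23.3 and 41.8 CPM in DMSO and 84.2, 81.0, 73.4 and 80.8 CPM with alectinib. In EA3 they were 13.6, 39.2, 40.2 and 28.2 CPM in DMSO and 80.7, 91.6, 66.2 and 129 CPM with alectinib. The lowest alectinib library of each line was above its highest DMSO library. For EA1, EA2 and EA3 in turn, its log2 fold changes were 1.92 ± 0.27 (standard error), 1.12 ± 0.27 and 1.67 ± 0.28 (edgeR, adjusted p = 0.000228, 0.00782 and 0.000663). Mxd4 was thus higher also in EA2, where the Myc interval included 0, and a difference of its effect between lines was not detected (adjusted p = 0.328, edgeR). EA2 minus EA1 was -0.80 (95% confidence interval -1.61 to 0.01), an interval that includes a smaller rise in EA2. Without the EA2 libraries of day 3 the EA2 value was 0.95 with an adjusted p of 0.0509, the one loss of a Mxd4 call over 13 alternatives in each line.

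Mxd1, Mxi1 and Mnt, the other antagonists that are known to rise in cells leaving division or to be present throughout, did not pass the threshold with alectinib in any line. In EA3 control cultures, Mxd1 and Mxi1 rose with time. Mxd1 stood at 10.6, 27.5, 55.5 and 201 CPM on days 1, 2, 3 and 5 in EA3 DMSO cultures and at 21.0, 26.7, 16.9 and 18.7 CPM with alectinib. In EA1 it stood at 11.9, 13.3, 17.6 and 64.5 CPM in DMSO and at 26.2, 19.4, 18.6 and 17.9 CPM with alectinib. In EA2 the DMSO values were 7.52, 6.69, 15.3 and 10.3 CPM and the alectinib values were 14.5, 14.5, 14.8 and 14.7 CPM. On day 1 the alectinib library was the higher one in each line, and on day 5 the DMSO library was far higher in EA3 and EA1. Mxd1 lies on chromosome 6 from 86647042 to 86669161 on the minus strand.

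Within the EA3 DMSO libraries the log2 level of Mxd1 rose by 1.82 ± 0.26 (standard error) per doubling of days (edgeR, adjusted p = 0.00695), and that of Mxi1 by 1.11 ± 0.24 (adjusted p = 0.0221). These were 2 of the 9 genes tested, against 6.10% of all genes, and DESeq2 called 3, Mnt being the other (slope 0.68, adjusted p = 0.0352). In EA1 the slopes were 1.01 ± 0.24 for Mxd1 and 0.80 ± 0.21 for Mxi1, with adjusted p-values of 0.0593 and 0.0861 in edgeR. None of the 9 passed there, against 1.83% of all genes, although 2 had an unadjusted p under 0.05 and DESeq2 called 2. In EA2 none of the 9 passed, none had an unadjusted p under 0.05 and DESeq2 called none, while 0% of all genes passed. These shares of all genes are those of edgeR's adjusted p, and none is given for the counts at an unadjusted p or in DESeq2. The EA3 calls were lost without either end of the series, although the slopes stayed positive. For Mxd1 the slope was 2.202 without day 1 and 1.495 without day 5 (edgeR, adjusted p = 0.394 and 0.145), and for Mxi1 it was 1.00 and 1.19 (adjusted p = 0.624 and 0.192). In EA1, leaving out day 5 took the slopes to 0.36 for Mxd1 and 0.13 for Mxi1 (edgeR, adjusted p = 0.739 and 0.926). Without day 1 the Mxd1 slope there was 1.73 (adjusted p = 0.347), and without day 3 Mxd1 and Mxi1 passed at 1.07 and 0.90 (adjusted p = 0.0399 and 0.0144).

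Mxi1, on chromosome 19 from 53310518 to 53375810 on the plus strand, stood at 32.1, 78.6, 117 and 194 CPM in EA3 DMSO cultures and at 44.4, 54.0, 63.0 and 79.4 CPM with alectinib. In EA1 it stood at 36.8, 64.1, 36.6 and 162 CPM in DMSO and between 56.1 and 70.3 CPM with alectinib, and in EA2 at 49.0, 60.9, 75.6 and 82.9 CPM in DMSO and between 48.1 and 64.2 CPM with alectinib. The highest DMSO library was that of day 5 in each line. Mnt, on chromosome 11 from 74830920 to 74845725 on the plus strand, stood at 57.4, 59.1, 167 and 135 CPM in EA3 DMSO cultures and between 67.7 and 91.6 CPM with alectinib. In EA1 it ran from 49.4 to 107 CPM in DMSO and from 84.8 to 111 CPM with alectinib, and in EA2 from 45.3 to 76.8 and from 71.7 to 98.9 CPM. For both genes the SD over the 4 days was smaller with alectinib than in DMSO in each line, which was not tested.

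Averaged over days, the log2 fold changes of Mxd1 for EA1, EA2 and EA3 were -0.01 (95% confidence interval -1.35 to 1.33), 0.61 (-0.68 to 1.90) and -1.04 (-2.42 to 0.35). Without the block for line and day, Mxd1 passed in EA3 at -1.82 (edgeR, adjusted p = 0.0270). For Mxi1 the blocked values were 0.06 (-0.68 to 0.79), -0.19 (-0.90 to 0.53) and -0.57 (-1.30 to 0.15), and for Mnt 0.23 (-0.26 to 0.73), 0.40 (-0.09 to 0.89) and -0.33 (-0.83 to 0.17). The change of the effect per doubling of days was -1.94 ± 0.28 (standard error) for Mxd1 in EA3 (edgeR, adjusted p = 0.0539) and -1.23 ± 0.28 in EA1 (adjusted p = 0.153). The EA1 value was -1.86 without day 1 and -0.68 without day 5. None of the 10 genes passed that test in any line, against 0.0210% of all genes in EA1, 0% in EA2 and 0.0491% in EA3. An unadjusted p under 0.05 was reached in EA1 by 4 genes, in EA2 by 0 and in EA3 by 4. DESeq2 called 1 in EA1, which was Mxd1, and 2 in EA3, which were Mxd1 and Mnt. The shares of all genes above are those of edgeR's adjusted p. They are no background for the counts at an unadjusted p or in DESeq2, for which no share is given.

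**Figure D3:**
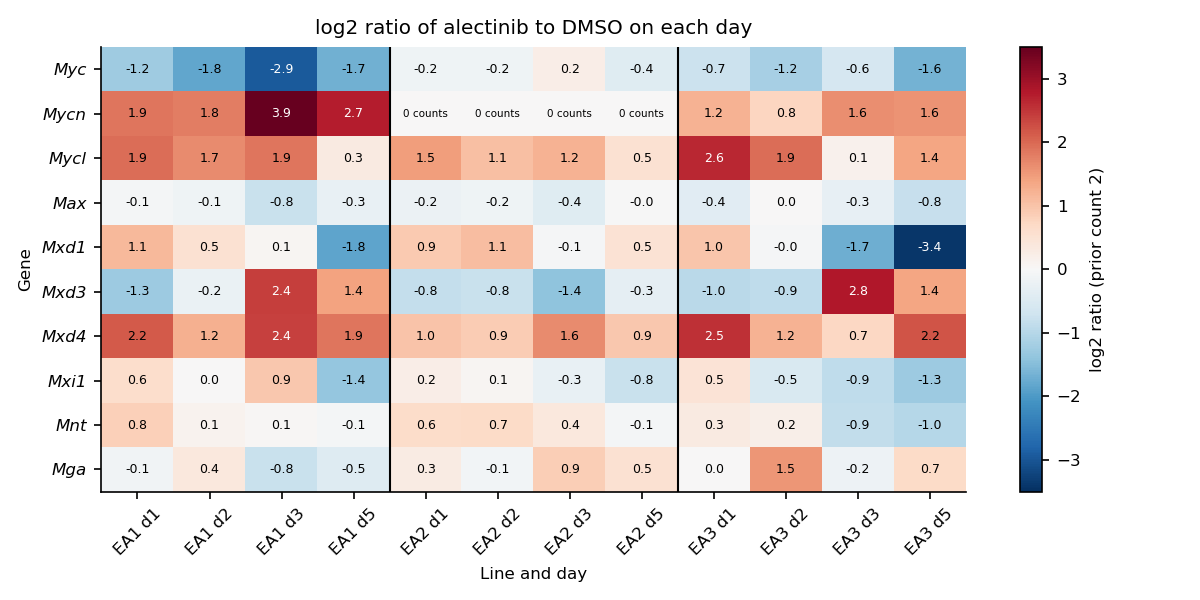
The log2 ratio of alectinib to DMSO (colour and printed value, with a prior count of 2) for each gene (rows) on each day in each line (columns). Mxd4 is positive in all 12 columns, Myc is negative in every EA1 and EA3 column, and the Mxd1 ratio in EA1 and EA3 goes from positive on day 1 to negative on day 5.

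Mxd3 had a different course. It lies on chromosome 13 from 55325168 to 55329823 on the minus strand and is known as the antagonist transcribed in S phase. In EA1 it stood at 14.5, 12.9, 1.92 and 3.75 CPM in DMSO and at 5.89, 11.0, 11.2 and 10.4 CPM with alectinib. In EA3 it stood at 8.43, 6.06, 0.264 and 1.32 CPM in DMSO, where day 3 holds 2 counts, and at 4.25, 3.16, 3.11 and 3.79 CPM with alectinib. In EA2 the values were 21.5, 26.3, 6.62 and 13.8 CPM in DMSO and 11.95, 15.2, 2.37 and 11.0 CPM with alectinib. In EA1 and EA3, DMSO libraries were the higher ones on days 1 and 2 and the lower ones on days 3 and 5, and in EA2 DMSO was higher on 4 of 4 days. None of the Mxd3 log2 fold changes passed, at 0.54 (95% confidence interval -0.83 to 1.92) for EA1, -0.83 (-2.10 to 0.43) for EA2 and 0.30 (-1.16 to 1.77) for EA3. Mxd3 shares 105 exon bases, 4.43% of its total, with Prelid1 on the other strand, which had 55454 counts over the 24 libraries against 1954 for Mxd3, and which strand was counted is not given in the sources used here. The summed level of 16 cell division genes went from 4853 CPM on day 1 to 1349 CPM on day 5 in EA1 DMSO cultures and from 4495 to 1143 CPM in EA3, and from 3919 to 3286 CPM in EA2. With alectinib it was 1330 and 1239 CPM in EA1, 1521 and 742 CPM in EA3 and 2059 and 2890 CPM in EA2 on the same days. The EA2 alectinib library of day 3 stood apart at 733 CPM, against 2476 CPM in DMSO on that day and 2059 CPM or more in the other EA2 alectinib libraries. Of these 16 genes, 6 were lower with alectinib in EA1, 5 in EA2 and 6 in EA3, against 14.6%, 11.3% and 15.1% of all genes, and none rose. Their medians were -0.66, -0.88 and -0.90 on the log2 scale. Their part in the course of Mxd1, Mxi1, Mnt and Mxd3 was not tested.

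Mga, the largest protein of the network, which joins a T-box to the domain that binds MAX, did not pass in any line. It lies on chromosome 2 from 119897228 to 119969581 on the plus strand. EA1 cultures had a mean of 97.5 ± 34.5 CPM (SD, n = 4 days) in DMSO and of 78.7 ± 10.7 with alectinib, EA2 cultures 89.2 ± 12.9 and 119.5 ± 29.9, and EA3 cultures 96.9 ± 40.5 and 127 ± 8.76. Its log2 fold change was -0.25 (95% confidence interval -0.81 to 0.30), 0.40 (-0.15 to 0.95) and 0.50 (-0.06 to 1.06). Among the 10 genes of the MGA polycomb complex, Mga included, 2 fell in EA1, 1 fell and 1 rose in EA2, and 2 fell in EA3, with medians of -0.19, -0.31 and -0.32. These counts lie near the shares of all genes called lower, 14.6%, 11.3% and 15.1%, and, for the rise in EA2, near the 13.0% called higher. Pcgf6, the subunit that defines the complex, had log2 fold changes for EA1, EA2 and EA3 of -1.05 ± 0.14 (standard error), -0.36 ± 0.14 and -0.76 ± 0.14 (edgeR, adjusted p = 0.000179, 0.0802 and 0.00139). Ring1, a catalytic subunit, rose by 0.89 on the log2 scale in EA2 and had -0.09 in EA1 and -0.23 in EA3, and its effect differed between lines (edgeR, adjusted p = 0.0199). The log2 fold changes of Yaf2 were -0.45 in EA2 and -0.47 in EA3, both past the threshold, and -0.02 in EA1.

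The balance of antagonist to activator transcripts was described as the summed level per kb of Mxd1, Mxd3, Mxd4, Mxi1 and Mnt over that of Myc, Mycn and Mycl. In EA1 the ratio was 0.385, 0.413, 0.171 and 0.757 on days 1, 2, 3 and 5 in DMSO and 1.47, 1.64, 1.94 and 1.91 with alectinib. In EA2 it was 0.291, 0.289, 0.262 and 0.327 in DMSO and 0.409, 0.379, 0.262 and 0.416 with alectinib. In EA3 it was 0.205, 0.265, 0.448 and 0.671 in DMSO and 0.479, 0.579, 0.409 and 0.915 with alectinib. Antagonist transcripts outnumbered the MYC family per length in the EA1 alectinib libraries and in no other group, and the treated and control values overlapped in EA2, where they met on day 3, and in EA3. Mxd4 supplied 7.30% to 14.1% of the antagonist level in EA1 DMSO libraries and 25.1% to 31.3% with alectinib, 7.75% to 14.4% and 20.4% to 24.5% in EA2, and 3.69% to 13.1% and 19.3% to 33.3% in EA3. Mnt had the highest mean level per kb of the 5 antagonists in every group, and the group medians of its share lay between 37.6% and 44.2%. These sums are descriptions of transcripts, with no test.

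**Figure D4:**
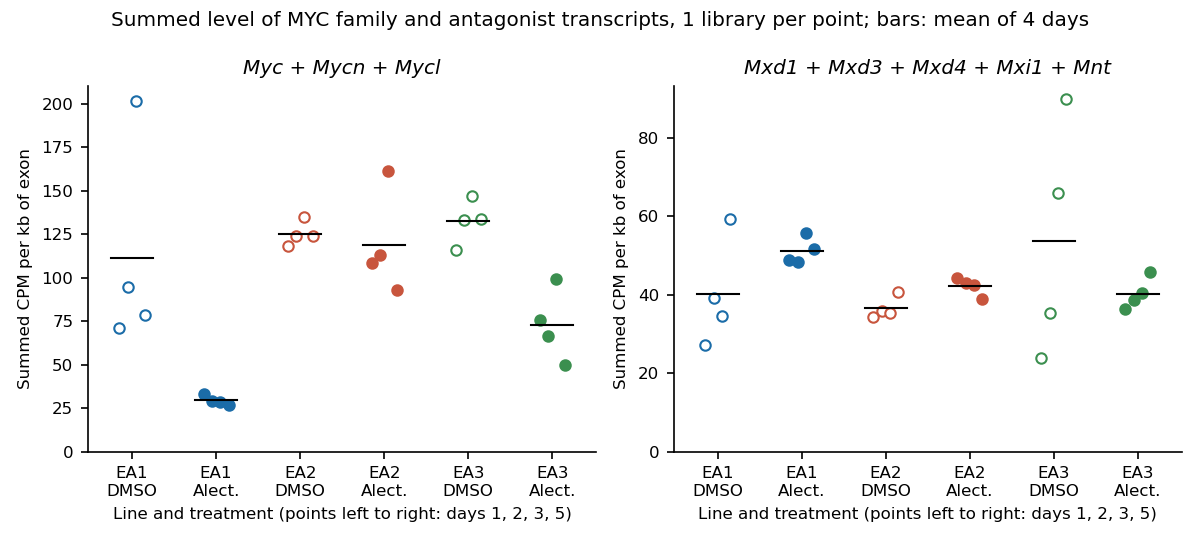
Summed CPM per kb of exon (y axes, starting at 0) of the MYC family (left) and of the 5 antagonists (right) for each line and treatment (x axis), with 1 point per library in the order of days 1, 2, 3 and 5, open for DMSO and filled for alectinib, and bars for the mean of 4 days. EA1 alectinib libraries lie between 27.0 and 33.3 for the MYC family and between 48.3 and 55.7 for the antagonists.

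MYC-activated genes, a list of 46 textbook targets in ribosome production, nucleotide and polyamine synthesis and metabolism, mostly fell with alectinib in EA1 and EA3, and in EA2 33 of them did not pass. Of the 46 genes, all tested, 35 were lower in EA1, 13 in EA2 and 33 in EA3, against 14.6%, 11.3% and 15.1% of all genes, and none rose. The medians for EA1, EA2 and EA3 were -0.91, -0.39 and -0.78 on the log2 scale, beside 0.06, 0 and 0.07 over all genes. Their summed level was lower with alectinib on each day in EA1 and EA3 and on days 1, 2 and 3 in EA2, where on day 5 it was 13252 CPM with alectinib and 12560 CPM in DMSO. Shmt2, the mitochondrial serine hydroxymethyltransferase, fell in each line, with log2 fold changes of -2.37 ± 0.20 (standard error), -1.08 ± 0.19 and -1.64 ± 0.19 and adjusted p-values of 4.99e-06, 0.00105 and 5.95e-05 in edgeR. Tfap4, a transcription factor downstream of MYC, had log2 fold changes of -1.71 ± 0.15 in EA1 and -1.74 ± 0.15 in EA3, both past the threshold, and of -0.15 ± 0.14 in EA2. In the test between lines, 5 of the 46 passed, against 6.84% of all genes, the lowest adjusted p being that of Tfap4 (0.000911, edgeR). The other 4 were Npm1, Gnl3, Shmt2 and Impdh2, of which Npm1, Gnl3 and Impdh2 are named after their values were seen. Odc1, the rate-limiting enzyme of polyamine synthesis, and Hk2, a hexokinase, showed the largest falls in EA2, at -1.69 ± 0.24 and -1.48 ± 0.24, against -0.93 ± 0.24 and -0.72 ± 0.24 in EA1 and -1.20 ± 0.23 and -1.20 ± 0.24 in EA3, and their adjusted p between lines was 0.278 and 0.297 in edgeR.

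Genes listed as repressed by MYC moved in both directions. Of 12, 1 rose and 1 fell in EA1, 3 rose and 1 fell in EA2, and 2 rose and 3 fell in EA3, with medians of 0.36, -0.39 and -0.55 beside 0.06, 0 and 0.07 over all genes. Over all genes, 19.0%, 13.0% and 17.5% were called higher and 14.6%, 11.3% and 15.1% lower. Thbs1, which encodes the secreted glycoprotein thrombospondin, rose in each line, by 4.54, 3.45 and 3.16 on the log2 scale. Clu, which encodes clusterin, rose by 2.30 in EA2 and by 0.66 in EA3 and had 0.55 in EA1 (edgeR, adjusted p = 0.0529), and its effect differed between lines (adjusted p = 0.00468). Ddit3, a stress-induced factor, fell in EA1 and EA3, with log2 fold changes of -2.18 and -1.72, and had 0.04 in EA2. Gas1 fell in EA2 and EA3, with -3.12 and -2.39, and had 1.28 ± 0.78 (standard error) in EA1. Cdkn1a, the cell cycle inhibitor induced by p53, fell in EA3, with -2.10, and had -0.89 in EA1 and -1.54 in EA2 (edgeR, adjusted p = 0.0544 in EA2).

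**Figure D5:**
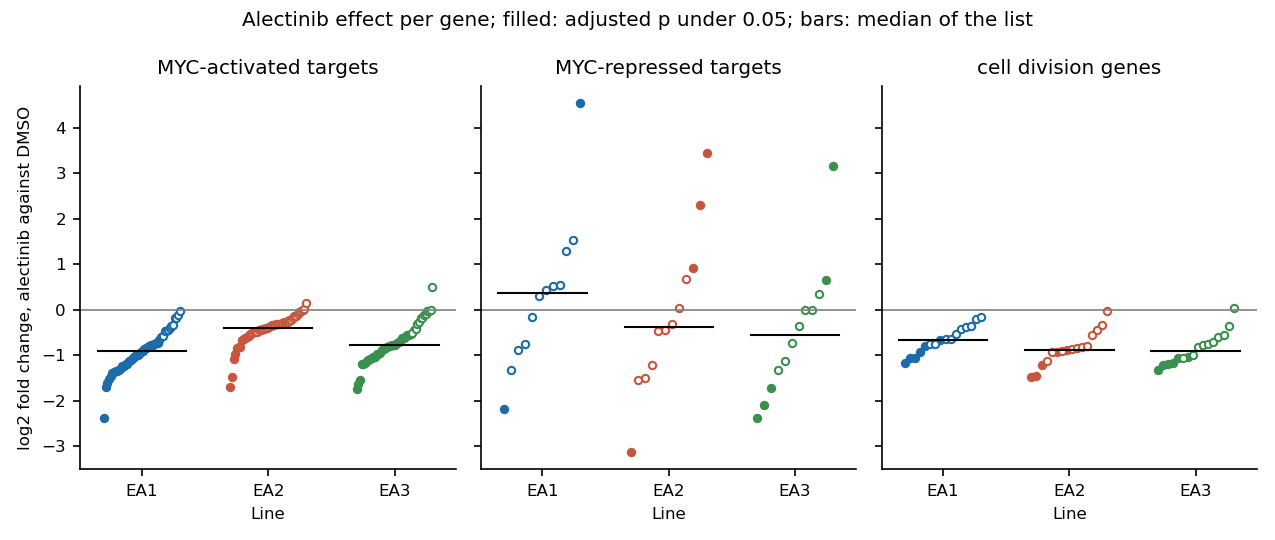
The log2 fold change of alectinib against DMSO (y axis, shared) for each gene of 3 lists by line (x axis), sorted within a line, with filled points for an adjusted p-value under 0.05 (edgeR) and bars for the median. The MYC-activated medians are -0.91, -0.39 and -0.78 in EA1, EA2 and EA3, and the MYC-repressed genes spread to both sides of 0.

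Cofactors of the network were also counted. Of 16 coactivators recruited by MYC, 5 were lower in EA1, 4 in EA2 and 5 in EA3, against 14.6%, 11.3% and 15.1% of all genes, and none rose. Their medians were -0.21, -0.08 and -0.07 on the log2 scale. The AAA+ ATPase Ruvbl2 had the largest fall of the 16 in each line, with log2 fold changes of -1.26, -1.10 and -1.26. Wdr5, which helps MYC to bind chromatin, had -0.85, -0.60 and -0.61, each past the threshold. Among 14 tested genes of the SIN3 and HDAC corepressor used by MXD proteins, none passed in EA1, 1 rose and 2 fell in EA2, and 1 rose and 3 fell in EA3, with Arid4b the gene that rose in both, by 0.81 and 0.55, against 0.23 in EA1. The medians were -0.11, -0.02 and -0.15, and the counts in EA2 and EA3 lie near the 13.0% and 17.5% of all genes called higher and the 11.3% and 15.1% called lower. Of 15 genes that act on MYC protein stability, 4 fell in EA1, none passed in EA2, and 2 fell and 1 rose in EA3. Their medians were -0.36, -0.14 and -0.30. Over all genes, 14.6%, 11.3% and 15.1% were called lower, and 17.5% were called higher in EA3. The EA3 falls lie near that share. Usp36, a nucleolar deubiquitinase of MYC, had log2 fold changes of -1.51 in EA1 and -0.93 in EA3, both past the threshold, and of -0.14 ± 0.19 (standard error) in EA2, and the difference between lines passed (edgeR, adjusted p = 0.0182). Ppp2r5a had -0.83 in EA1, past the threshold, 0.16 in EA2 and -0.15 in EA3, and also differed between lines (edgeR, adjusted p = 0.0263). Mlx, the partner of the parallel MondoA arm, fell by 0.68 on the log2 scale in EA2 and had -0.52 in EA1 and -0.22 in EA3, with 2 of the 3 genes of that arm tested.

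Genes that followed Myc most closely were sought over the 12 log2 ratios of alectinib to DMSO, among 9925 genes of sufficient level. The 3 highest Pearson correlations were 0.961 for Mcfd2, 0.927 for Pcgf6 and 0.926 for Ppp2r5a. For Mxi1 they were 0.965 for Dcaf6, 0.938 for Ccng2 and 0.937 for Gpi1. Between network genes, the strongest correlation of ratios was that of Myc with Mycn at -0.912, in which the 4 EA2 points have 0 Mycn counts on both sides. Mxd1 correlated with Mnt at 0.877 and with Mxi1 at 0.777, Mxd3 with Mnt at -0.767, and Mxd4 with Myc at -0.533. The 12 points share their lines and depth and are given as a description.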

How the data were processed

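RNA sequencing of 26 cultures was deposited as 1 table of raw counts per gene. Per the study's methods, the authors checked reads with FastQC, trimmed adapters with bbduk, mapped to mm10 with STAR and took counts from STAR's internal counter, so deposited counts are not normalized. The annotation release, strand column and tool versions are not given in the sources used here. The 24 lines that hold a date in place of a symbol (0.129% to 0.201% of a library) were left out, and 55314 symbols matched GENCODE when case was ignored.

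The 10 genes and the other gene lists were chosen with earlier results of these data known. Every list gene is counted. Outside the marker lists, the genes named are among the 2 largest called rises or falls of a list in at least 1 line, with their values in the other lines. Exceptions are Npm1, Gnl3 and Impdh2, named after their values were seen, and the genes most correlated with Myc or Mxi1. The main tool was edgeR 4.0.16 in R 4.3.3 (TMM, filterByExpr by line and treatment, robust quasi-likelihood test). A single fit of the 24 libraries of days 1 to 5 had a block for each line and day and an effect per line, on 14264 genes. Further fits took the effect over log2(day) and, in the 12 DMSO libraries (12886 genes), line, day and slope. Levels per kb use merged GENCODE exons. Libraries of a line share the labelled day, and their deviations from group means correlated between -0.300 and 0.549 across genes, so that the pairing comes from the labels. Alternatives were DESeq2 1.42.0, its size factors, library size alone, other filters, no block, lines fitted alone, all 26 libraries and each day left out. For the DMSO slopes they were chosen after seeing the data. Calculations were tested on simulated counts. The labels do not say that cultures were independent, so p-values measure the spread over days.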

Additional observations from a re-analysis of the deposited data

Results flagged for a closer look

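Within groups of 4 days, 4 of the 58 groups examined had 1 library far from the other 3 by Dixon's criterion, and chance gives about 1 in 20. They were Mxd1 in EA1 DMSO cultures, where day 5 had 64.5 CPM, Mxd1 in EA1 alectinib cultures, where day 1 had 26.2 CPM, Mxd3 in EA1 alectinib cultures, where day 1 had 5.89 CPM, and Mxd4 in EA2 DMSO cultures, where day 3 had 23.3 CPM. The days of a group are not exact replicates, so a library at either end of the series can stand apart by its day. Without the EA1 libraries of day 5, the log2 fold change of Mxd1 in EA1 was 0.49 (edgeR, adjusted p = 0.576) in place of -0.01. Without the EA2 libraries of day 3, that of Mxd4 in EA2 was 0.95 (adjusted p = 0.0509) in place of 1.12.

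The alectinib effect on Myc differed between EA1, EA2 and EA3 in a test of the difference itself (edgeR, adjusted p = 0.0165). In EA1, EA2 and EA3, respectively, it was -1.92, -0.12 and -1.04 on the log2 scale, lower with alectinib on 4 of 4 days in EA1 and EA3 and on 3 of 4 days in EA2. This contrast was known when the genes were chosen, so the test is no independent evidence, and without the EA2 libraries of day 3 its adjusted p was 0.0520 (edgeR).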

How the results depend on the processing

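Over 29 log2 fold changes of network genes, 347 of 372 values under alternatives kept their direction and their side of the threshold, 13 turned direction, 6 passed newly and 6 no longer passed. Counts of called genes that moved by over 1.5 times were as follows. In EA2 (2 genes), 1 was called with all 26 libraries and 0 to 1 with single days left out. In EA3 (3), no filter on low counts gave 5. For the effect between lines (1), no filter gave 2, and leaving out each pair gave 0 to 1. For the slope of the effect in EA1 (0), DESeq2's test and no filter gave 1 each, and in EA3 (0) DESeq2's test gave 2, while DESeq2 size factors, no filter and at least 10 counts in every library gave 1 each. For DMSO levels between lines (3), no filter gave 5. For DMSO slopes in EA1 (0), DESeq2's test gave 2, no filter 3 and leaving out each library 0 to 2, and in EA3 (2) no filter gave 4 and leaving out each library 0 to 2. Within 1.5 times, the EA1 count (4) went to 3, those of EA2 and EA3 to 3 and 4, that of DMSO levels to 2 or 4, and that of DMSO slopes in EA3 (2) to 3.

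Each turned value belongs to a gene that had not passed. Mxd1 in EA1 was 0.0803 with library size alone, 0.000896 with at least 10 counts in every library and between -0.41 and 0.49 with days left out. Mxi1 in EA1 was -0.00118 with no filter, -0.0194 with all 26 libraries and between -0.25 and 0.42 with days left out. With days left out, Mxi1 in EA2 ran from -0.33 to 0.0118, Mxd3 in EA1 from -0.0652 to 1.20 and Mxd3 in EA3 from -0.31 to 0.90. With no replicate block, Mxi1 in EA1 was -0.24, Mxd3 in EA3 was -0.20, and Mxd1 in EA3 passed at -1.82 (edgeR, adjusted p = 0.0270). The adjusted p of Mxd3 between lines in DMSO was 0.132 without the day. The pairing changed no other call. The cause of these changes was not tested. Library size alone moved the median of all genes in EA3 from 0.07 to 0.18. Mycn had 0 to 6 counts in the EA1 DMSO libraries, and Mxd3 had 2 and 8 in the EA3 DMSO libraries of days 3 and 5.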

Other observations

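The 2 libraries labelled EA3 day 7 entered no comparison above except the alternative with all 26 libraries. Across genes, the DMSO library correlated at 0.942 to 0.977 with EA2 DMSO libraries and at 0.857 to 0.889 with those of EA3, and the alectinib library at 0.960 to 0.988 with EA2 and at 0.852 to 0.871 with EA3. Mycn had 0 counts in both, as in EA2. In these libraries Mxd4 stood at 11.96 CPM in DMSO and 119.8 CPM with alectinib, Myc at 444 and 231 CPM, Mycl at 9.32 and 7.79 CPM, the one pair of libraries in which it was lower with alectinib, Mxd3 at 0.881 and 10.5 CPM, and Mxi1 at 82.1 and 46.3 CPM.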
